A study of Mus musculus with 72 samples.

Results

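The effect of the microbiota on the liver without its clock was measured late in the dark phase, at ZT22 (zeitgeber time, hours after lights on), by comparing germ-free (GF) LKO mice with specific pathogen-free (SPF) LKO mice. The comparison takes 3 libraries of GF LKO ZT22 and 3 of SPF LKO ZT22, 6 of the 72 libraries of the series, and all were chosen by their labels alone. All mice were male, adult, of strain C57BL/6 and homozygous for loxP-flanked Bmal1 (Bmal1 fl/fl), and were kept in 12:12 light and dark with autoclaved chow at all hours. LKO mice also carried Albumin-Cre, a recombinase driven by a hepatocyte promoter. The paper reports that Bmal1 was lost in liver and kept in brain. Bmal1 in single cell types of the liver and in other organs was not measured here. WT mice, used here as a second measure of the microbiota effect, had the same floxed Bmal1 without Cre and also numbered 3 GF and 3 SPF at ZT22. GF mice came from rederived stock and lived in isolators, so the absence of microbes and the change of housing cannot be told apart. Whole pieces of frozen liver were used, and in such bulk RNA fewer cells of a type and less RNA per cell cannot be told apart.

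Bmal1 (listed as Arntl) encodes a transcription factor that, with CLOCK or NPAS2, drives the rhythmic genes of the cell. The liver also receives what the gut absorbs: bile acids altered by bacteria, microbial metabolites and fragments of bacterial walls arrive by the portal vein. Nuclear receptors such as PXR, CAR and FXR bind bile acids or foreign compounds and set the level of the enzymes that detoxify them. Growth hormone, sex steroids, feeding and iron are further inputs to the genes described here.

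The 6 libraries answered to their labels. Arntl stood at 9.84, 11.1 and 13.7 CPM (counts per 1e+06 counts of the library, after TMM scaling) in GF LKO and at 16.8, 13.8 and 12.4 CPM in SPF LKO, below the 34.1 to 41.4 CPM of the 6 WT libraries. Because reads were summed over the whole gene, the excised part was not read on its own. Npas2, a partner that can stand in for CLOCK, was between 23.8 and 45.4 CPM in the 6 LKO libraries and between 7.92 and 13.1 CPM in the WT libraries. Along the second principal component of the 12 libraries of ZT22 (18.7% of the variance of 500 genes) every SPF library was above 0 and every GF library below it. SPF WT replicate 1 was close to 0, at 0.112. The other SPF libraries lay at 9.26 to 16.5 and the GF libraries at −14 to −8.82. The chi-square of the counts per degree of freedom was 19.6 to 38.5 between LKO replicates and 43.4 to 96.6 between GF and SPF LKO libraries. GF LKO libraries held 17369927 to 18218760 counts and SPF LKO libraries 19708790 to 22076113, ranges that do not overlap. Hepatocyte markers (Alb, Ttr, Apoa1 and others, 8 tested) summed to 82300 to 93900 CPM in GF LKO against 64800 to 70000 in SPF LKO. The median log2 difference (GF minus SPF) was 0.159 over the 3395 genes with the least exon length (median 1742 bases) and −0.114 over the 3394 with the most (median 8948 bases). The part of depth, of hepatocyte RNA and of gene length in the results was not tested.

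Of 13576 genes tested, 305 (2.25%) passed an adjusted p of 0.05 and are called changed: 194 (1.43%) were higher and 111 (0.818%) lower in GF LKO. Every adjusted p is edgeR's (quasi-likelihood F-test), corrected over all genes tested by the method of Benjamini and Hochberg. The size of the called differences ranged from 0.38 to 5.93 on the log2 scale, and 117 genes (0.862%), 61 higher (0.449%) and 56 lower (0.412%), differed by at least 1. The 305 genes were also separated library by library, with no GF value inside the SPF range, but so were 1909 (14.1%) of all genes tested with GF higher and 1794 (13.2%) with GF lower. Called genes that were higher in GF LKO had a median exon length of 2266 bases and those lower 4959 bases, against 4268 bases for all genes tested. The count rests on few libraries. It was 52 without GF LKO replicate 2, 83 without GF LKO replicate 3, 40 without SPF LKO replicate 2 and 118 without SPF LKO replicate 3, and 32 of the 305 genes were called with each library left out in turn. For that reason the largest adjusted p over those 6 fits is given below for genes that lost the call in any of them.

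**Figure D1:**
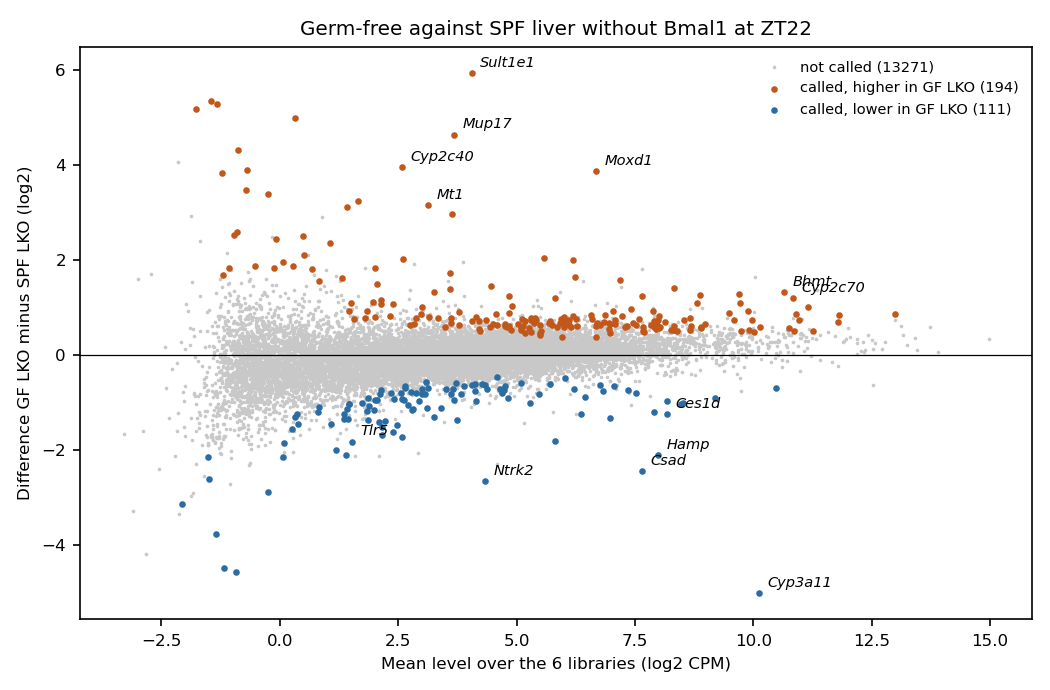
Difference between GF LKO and SPF LKO liver at ZT22 (y axis, log2) against the mean level over the 6 libraries (x axis, log2 CPM), 1 point per gene tested. Called genes are orange (194 higher in GF LKO) or blue (111 lower), and Cyp3a11 stands alone at high level with a difference of −5.01.

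The enzymes of foreign compound metabolism held the deepest decrease. Cyp3a11 is the main CYP3A oxidase of mouse liver and the classic target of PXR, a receptor for drugs and for some bile acids made by bacteria. Its level was 7250, 7920 and 4600 CPM in SPF LKO and 140, 306 and 167 CPM in GF LKO, so that the highest GF library lay far below the lowest SPF library. Cyp3a11 fell by 5.01 ± 0.32 on the log2 scale (SE; adjusted p = 6.34e-06). Of 31 tested genes on the list of PXR and CAR targets and xenobiotic enzymes, 0 rose and 7 fell, while the list as a whole was centered near no change, with a median of −0.03 against −0.02 for all genes tested.

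Nuclear receptors, PXR and CAR among them, bind paired half-sites such as AGNTCA (N is any base). The upstream sequences of Cyp3a11 and of the 2 other CYP3A genes that fell are therefore shown. They are the 250 bases before the RefSeq start, 5′ to 3′ along the gene, from build GRCm38.p6: Cyp3a11 at chr5:145879855-145880104 (minus strand), Cyp3a59 at chr5:146079008-146079257 (plus strand) and Cyp3a25 at chr5:146009619-146009868 (minus strand, 1 of its 2 RefSeq entries). Capitals mark a direct repeat of the half-site with 4 bases or 1 base between, searched on both strands. Other spacings and inverted or everted pairs were not searched.
Cyp3a11: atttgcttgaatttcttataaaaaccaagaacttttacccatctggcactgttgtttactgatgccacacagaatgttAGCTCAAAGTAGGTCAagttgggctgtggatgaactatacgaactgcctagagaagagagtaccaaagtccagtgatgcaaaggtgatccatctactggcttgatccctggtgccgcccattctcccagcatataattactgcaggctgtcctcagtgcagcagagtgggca
Cyp3a59: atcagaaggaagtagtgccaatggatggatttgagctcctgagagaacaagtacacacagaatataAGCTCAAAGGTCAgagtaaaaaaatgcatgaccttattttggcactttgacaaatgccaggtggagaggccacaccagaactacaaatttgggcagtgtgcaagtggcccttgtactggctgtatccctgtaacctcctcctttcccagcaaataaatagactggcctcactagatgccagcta
Cyp3a25: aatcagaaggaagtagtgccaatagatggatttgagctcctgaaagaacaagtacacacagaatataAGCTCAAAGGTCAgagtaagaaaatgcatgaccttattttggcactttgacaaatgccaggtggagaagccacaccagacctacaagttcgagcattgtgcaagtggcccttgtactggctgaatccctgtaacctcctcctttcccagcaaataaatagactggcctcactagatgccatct
In Cyp3a11 the half-sites are 4 bases apart and lie 172 to 157 bases before the start. In Cyp3a59 and Cyp3a25 they are 1 base apart, 184 to 172 and 183 to 171 bases before it. The Cyp3a59 and Cyp3a25 sequences were equal at 238 of 249 bases when set off by 1 base. Among 32851 RefSeq promoters of this length, 0.103% held AGNTCA followed by AGNTCA after 4 bases and 0.183% held it after 1 base, and none of the 3 sequences held both. These motifs were chosen after the values were seen, and a match is a description of the letters, not a site. Whether PXR or CAR binds the repeat of either spacing was not tested.

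Cyp3a59, on the same cluster, was at 133, 115 and 76.6 CPM in SPF LKO and at 24.5, 43.4 and 24.1 CPM in GF LKO, and fell by 1.82 ± 0.25 (adjusted p = 0.00474). Cyp3a25 was at 957, 819 and 646 CPM in SPF LKO and 360, 498 and 426 CPM in GF LKO and fell by 0.92 ± 0.17. Reads shared among close CYP3A copies were not counted, which makes the levels of single copies uncertain. The other 4 members that fell were carboxylesterases, which split esters of drugs and lipids. Ces2a was at 494, 520 and 511 CPM in SPF LKO and 260, 254 and 235 CPM in GF LKO, a fall of 1.03 ± 0.12 with a tight spread in either group (adjusted p = 0.00224). Ces1d fell by 1.25 ± 0.17, from 465, 491 and 389 CPM to 140, 212 and 215 CPM. Ces1e fell by 0.88 ± 0.11 and Ces1f by 0.96 ± 0.17. Cyp2b10, the usual CAR target, differed by −1.25 with an adjusted p of 0.082 and was not called, and Nr1i2, which encodes PXR itself, by 0.30 (adjusted p = 0.13). Cyp3a11, Cyp3a59, Ces2a, Ces1d and Ces1e were called with any 1 library left out. Ces1f and Cyp3a25 lost the call without GF LKO replicate 3 or SPF LKO replicate 2 (adjusted p up to 0.0704 and 0.0832).

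Conjugation enzymes, which attach sulfate, glucuronate or glutathione to make compounds soluble, moved both ways. Sult1e1, which sulfates and inactivates estrogens, had the largest increase of the comparison among genes with a mean of at least 1 log2 CPM. It was near the floor in SPF LKO, at 2.54, 2.04 and 2.57 CPM, and at 37.3, 258 and 142 CPM in GF LKO, so the GF mice spread widely while all lay above every SPF mouse. Its difference was 5.93 ± 0.62 (adjusted p = 0.000827). Sult1a1, the sulfotransferase of phenols, rose by 1.23 ± 0.15, from 133, 148 and 115 CPM to 251, 347 and 333 CPM. Of the 39 tested members, 2 rose (these sulfotransferases) and 4 fell. Ephx1, the microsomal epoxide hydrolase, fell by 1.01 ± 0.16, from 454, 648 and 465 CPM to 259, 289 and 230 CPM. The glutathione transferases Gstm1 and Gstm3 fell by 0.70 ± 0.17 and 1.21 ± 0.28, and the glucuronosyltransferase Ugt1a9 by 1.63 ± 0.34. Ugt1a9 shares its last exons with the other Ugt1a genes. Sult1e1, Sult1a1 and Ephx1 held with any 1 library left out. Ugt1a9 lost the call without GF LKO replicate 1 or 3 or SPF LKO replicate 2 (adjusted p up to 0.14). Gstm3 lost it without any single GF LKO library or SPF LKO replicate 2 (up to 0.17), and Gstm1 also without SPF LKO replicate 3 (up to 0.178). The list held 3 calls without GF LKO replicate 3 or SPF LKO replicate 2.

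Genes that differ between male and female liver stood among the largest changes in both directions. In mice such genes follow the pulse pattern of growth hormone, and STAT5B and BCL6 relay it. Of 25 tested male-biased genes, 6 rose and 0 fell, with a median of 0.50, against 0.40 in WT, where 2 were called. Moxd1, a monooxygenase related to dopamine beta-hydroxylase, was at 12.5, 12.9 and 72 CPM in SPF LKO and at 573, 519 and 328 CPM in GF LKO, a difference of 3.87 ± 0.58 (adjusted p = 0.00777). SPF LKO replicate 3 stood above the other SPF LKO libraries and still far below every GF LKO library. In WT, Moxd1 was at 0.17, 0.05 and 0 CPM in SPF and at 6.02, 12.5 and 6.87 CPM in GF. The major urinary proteins, pheromone carriers secreted by the liver into blood and urine, gave 4 of the named increases: Mup17 by 4.63 ± 0.79, Mup16 by 2.97 ± 0.54, Mup1 by 2.04 ± 0.39 and Mup20 by 1.01 ± 0.21. Mup17 went from 2.84, 1.84 and 3.13 CPM to 69.8, 83.8 and 40.5 CPM, and Mup20, the most abundant of the 4, from 1900, 1230 and 1760 CPM to 2890, 3170 and 3780 CPM. The copies of this family are nearly identical, reads that fit several places were not counted, and the split among copies is uncertain. Susd4 rose by 1.45 ± 0.26 and the complement component C9 by 0.87 ± 0.15. Moxd1 held without any 1 library. Mup17 lost the call without SPF LKO replicate 2 (adjusted p = 0.0865), and Mup1, Susd4 and C9 without GF LKO replicate 2 or SPF LKO replicate 2 (up to 0.0985, 0.0696 and 0.0909). Mup16 lost it without either of these or SPF LKO replicate 3 (up to 0.095), and Mup20 without any of these or GF LKO replicate 3 (up to 0.126). The list held 2 calls without GF LKO replicate 2 and 1 without SPF LKO replicate 2.

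Female-biased genes were called in both directions. Of the 22 listed, only 10 passed the filter on low counts and were tested. Of these 10, 2 rose (Sult1e1 and Cyp17a1) and 2 fell (Ntrk2 and Abcd2). Among the 10, 7 differences were above 0 and the median was 0.38, against 0.51 in WT. The 22 listed summed to 229 to 492 CPM in GF LKO and 262 to 306 in SPF LKO, ranges that overlap. Cyp17a1, which makes androgen precursors in the testis and is low in liver, was at 1.03, 0.679 and 1.16 CPM in SPF LKO and 2.1, 8.7 and 3.92 CPM in GF LKO, a difference of 2.35 ± 0.51. Ntrk2, the receptor TrkB for the neurotrophin BDNF, was at 45.9, 75.6 and 47.7 CPM in SPF LKO and at 3.98, 17 and 5.88 CPM in GF LKO, and fell by 2.66 ± 0.43 (adjusted p = 0.00921). It was under 1 CPM in all 6 WT libraries. Abcd2, which carries very long fatty acids into peroxisomes, fell by 2.10 ± 0.48, from 7.46, 4.55 and 4.16 CPM to 1.18, 1.66 and 0.926 CPM. Cyp2c40 and Cyp2c69, oxidases of arachidonic acid and related lipids, were the remaining CYPs among the 10 largest increases. They rose by 3.95 ± 0.79 and 3.24 ± 0.79, with GF LKO libraries at 26.6, 47.9 and 9.15 CPM for Cyp2c40 against 2.93, 0.559 and 1.93 CPM in SPF LKO. Ntrk2 lost the call without SPF LKO replicate 2 (adjusted p = 0.0558). Cyp2c40 lost it without GF LKO replicate 2 or SPF LKO replicate 2 or 3 (up to 0.11). Cyp2c69 held only without GF LKO replicate 3 (up to 0.197 otherwise), Cyp17a1 only without GF LKO replicate 1 (up to 0.153), and Abcd2 lost it without any single library (0.0606 to 0.126). The female-biased list held 1 call without SPF LKO replicate 2, and 2 without SPF LKO replicate 1 or GF LKO replicate 2 or 3.

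**Figure D2:**
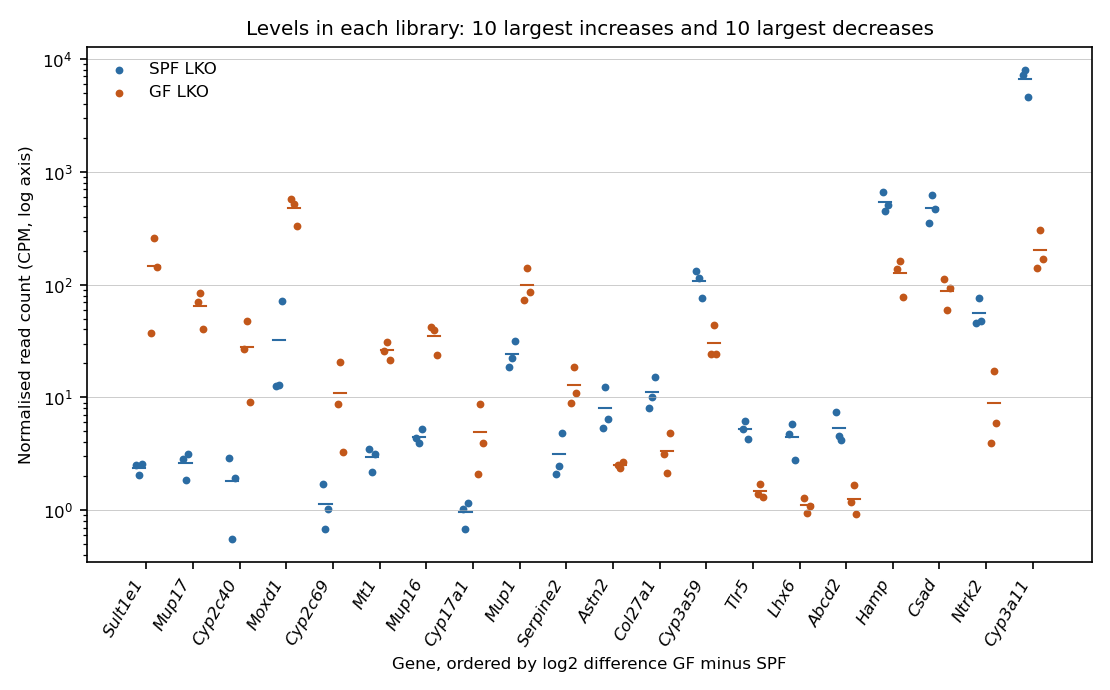
Normalised read counts (CPM, log axis) of the 10 largest increases and 10 largest decreases in each of the 3 SPF LKO (blue) and 3 GF LKO (orange) libraries, with horizontal bars at the group means. By the naming rule the groups do not overlap for any of the 20, and the distance between groups is widest for Sult1e1 (2.04 to 2.57 against 37.3 to 258 CPM) and Cyp3a11 (4600 to 7920 against 140 to 306 CPM).

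Sulfur and methyl metabolism carried most of the changes among amino acid genes. Of 36 tested genes of amino acid catabolism and the urea cycle, 9 rose and 1 fell, and the median was 0.30. The one that fell was Csad, the decarboxylase that commits cysteine to taurine, the partner to which mouse bile acids are conjugated. Csad was at 352, 619 and 472 CPM in SPF LKO and at 111, 59.6 and 93.3 CPM in GF LKO, and fell by 2.45 ± 0.36 (adjusted p = 0.00617). Upstream enzymes moved the other way. Cth, which releases cysteine from cystathionine, rose by 1.29 ± 0.23, from 586, 612 and 456 CPM to 821, 1910 and 1310 CPM. Bhmt, which remethylates homocysteine with betaine, rose by 1.32 ± 0.21, from 1130, 1130 and 820 CPM to 2020, 3060 and 2610 CPM. Mat1a, which makes S-adenosylmethionine, rose by 0.83 ± 0.15, and Dmgdh, the next enzyme of betaine breakdown, by 0.93 ± 0.17. Nnmt, which spends a methyl group on nicotinamide, rose by 1.58 ± 0.37. Other increases were in tyrosine breakdown (Hgd by 0.52 ± 0.12), lysine breakdown (Aass by 0.53 ± 0.11) and the last step of the urea cycle (Arg1 by 0.57 ± 0.10, from 1450, 1380 and 1420 CPM to 1990, 2180 and 2150 CPM). Csad and Bhmt held without any 1 library. The list held 3 calls without GF LKO replicate 2, 5 without GF LKO replicate 3, 4 without SPF LKO replicate 2 and 3 without SPF LKO replicate 3. The largest adjusted p over these fits was 0.0589 for Cth, 0.0746 for Arg1, 0.0747 for Mat1a and 0.0814 for Dmgdh. It was 0.156 for Aass, 0.167 for Hgd and 0.179 for Nnmt.

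Bile acid synthesis showed one clear change. Cyp2c70, the enzyme that turns chenodeoxycholic acid into the muricholic acids of rodents, was at 1390, 936 and 1350 CPM in SPF LKO and at 2830, 3240 and 2310 CPM in GF LKO, and rose by 1.19 ± 0.16 (adjusted p = 0.00474, held without any 1 library). The rate-limiting enzyme Cyp7a1 differed by −0.76 (adjusted p = 0.48), Cyp8b1 by −0.43 (0.34) and Cyp7b1 by 0.91 (0.073), and none was called. The other call among 15 tested members was Cyp46a1, with 0, 0 and 2 raw counts in GF LKO and 6, 10 and 11 in SPF LKO. That gene lost its call without GF LKO replicate 1 or 2 or SPF LKO replicate 2 or 3 (adjusted p up to 0.165). None of 17 bile acid receptors and transporters was called by edgeR. An unadjusted p under 0.05 was found for 4, and 1 passed in DESeq2.

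Cholesterol synthesis leaned upward with few calls. Of 25 tested members 23 had a difference above 0, with a median of 0.55, and 3 rose: Ebp by 0.63 ± 0.10, Tm7sf2 by 0.75 ± 0.16 and Stard4, a sterol carrier, by 0.59 ± 0.13. Ebp, an isomerase late in the pathway, was at 193, 212 and 194 CPM in SPF LKO and at 325, 307 and 298 CPM in GF LKO. In WT liver the same list had a median of 0.87 and 9 members called, and the difference between genotypes passed the test for none of them. Ebp held without any 1 library. Tm7sf2 held only without SPF LKO replicate 1 (up to 0.107 otherwise), and Stard4 lost the call without any single library (0.0518 to 0.139). The list held 1 call without GF LKO replicate 1 or 3 or SPF LKO replicate 2 or 3.

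Lipid and sugar metabolism held single changes. Me1, malic enzyme, which supplies NADPH for fatty acid synthesis, fell by 1.25 ± 0.22, from 119, 169 and 100 CPM to 58.3, 38.2 and 67 CPM, and was the 1 call among 24 lipogenic genes. Fasn and Scd1 differed by −0.40 and −0.64 and were not called. Of 38 genes of fatty acid oxidation and PPARA targets, 1 was called: Cyp4a31, a fatty acid hydroxylase, rose by 1.33 ± 0.24. Of 37 genes of glucose metabolism, 1 rose and 2 fell. Pklr, the pyruvate kinase that ends glycolysis, fell by 1.32 ± 0.30, from 139, 271 and 211 CPM to 95, 51.8 and 102 CPM. Pck2, the mitochondrial PEP carboxykinase, fell by 1.04 ± 0.22 at a low level, and Pfkfb1, which sets fructose 2,6-bisphosphate, rose by 0.73 ± 0.18. Me1 and Cyp4a31 lost the call without GF LKO replicate 2 or SPF LKO replicate 2 (adjusted p up to 0.0746 and 0.0909). Pklr held only without SPF LKO replicate 1 (up to 0.162), Pck2 only without GF LKO replicate 1 (up to 0.139) and Pfkfb1 only without SPF LKO replicate 3 (up to 0.175). The glucose list held 0 calls without GF LKO replicate 2 or 3 or SPF LKO replicate 2, and 1 without each of the others.

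Hamp, a gene of iron handling and of the acute phase, had one of the 10 largest decreases. It encodes hepcidin, the hormone that lowers iron export from gut and macrophages. Its upstream sequence is shown because its 2 best known inputs, STAT3 and BMP signaling, act through short elements close to the start (chr7:30944030-30944279, minus strand, GRCm38.p6, RefSeq, 250 bases, 5′ to 3′), with the letters GGCGCC and TTCNNNGAA in capitals where found.
Hamp: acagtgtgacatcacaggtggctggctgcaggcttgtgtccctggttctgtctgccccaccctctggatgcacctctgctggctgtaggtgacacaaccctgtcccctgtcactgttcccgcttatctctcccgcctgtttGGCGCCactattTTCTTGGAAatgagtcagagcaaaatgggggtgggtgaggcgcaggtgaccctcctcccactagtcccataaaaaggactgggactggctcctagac
GGCGCC lies 109 to 104 bases before the start and is in 9.59% of the promoters. The match to TTCNNNGAA lies 97 to 89 bases before it, and 7.02% of promoters hold one. Both motifs read the same on either strand, they do not overlap here, and they were chosen after the values were seen. Hamp was at 666, 453 and 511 CPM in SPF LKO and at 138, 161 and 78.2 CPM in GF LKO, and fell by 2.11 ± 0.38 (adjusted p = 0.0152, or 0.0592 without GF LKO replicate 3). Slc40a1, the iron exporter that hepcidin binds and that Kupffer cells express strongly, fell by 0.65 ± 0.12, from 161, 180 and 163 CPM to 116, 98.9 and 105 CPM.

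Of 30 tested acute phase genes, 4 rose and 1 (Hamp) fell. The metallothionein Mt1, which binds zinc and copper, was at 3.49, 2.16 and 3.18 CPM in SPF LKO and at 26, 31.3 and 21.3 CPM in GF LKO, a difference of 3.16 ± 0.71. Its neighbor Mt2 had 0, 1 and 0 raw counts in SPF LKO and 11, 19 and 9 in GF LKO. Crp, C-reactive protein, rose by 0.88 ± 0.15, from 506, 515 and 567 CPM to 827, 1020 and 1080 CPM. Orm1, an acid glycoprotein, rose by 0.74 ± 0.16. Mt1 lost the call without any single library (adjusted p 0.052 to 0.163), Mt2 without any but GF LKO replicate 1 (up to 0.143), Crp without GF LKO replicate 2 or SPF LKO replicate 2 (up to 0.066), and Orm1 without any but SPF LKO replicate 1 (up to 0.142). The list held 1 call without GF LKO replicate 2 or 3 or SPF LKO replicate 2, 2 without SPF LKO replicate 3 and 3 without GF LKO replicate 1.

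Immune genes gave few calls. Tlr5, the receptor for bacterial flagellin, was at 5.3, 6.15 and 4.25 CPM in SPF LKO and at 1.4, 1.72 and 1.31 CPM in GF LKO, and fell by 1.83 ± 0.36. It was the 1 call among 26 genes of endotoxin and Toll-like receptor sensing, in which 9 differences were above 0 and the median was −0.11. Igha, the constant region of IgA, had 27, 37 and 35 raw counts in SPF LKO and 3, 0 and 0 in GF LKO, so that nearly all of its reads came from mice with a microbiota. Igha was called with any 1 library left out. Among 9 tested B and plasma cell markers it was the 1 call, and 3 differed upward. The 12 markers listed summed to 15.2 to 40.8 CPM in GF LKO and 15.4 to 19.2 in SPF LKO. The neutrophil genes S100a8 and Csf3r were called lower at levels under 2.1 CPM in every LKO library. In WT they differed by 0.45 and −0.84, and neither was called. The 13 neutrophil and monocyte markers listed (4 tested) summed to 2.58 to 4.22 CPM in GF LKO and 5.1 to 9.99 in SPF LKO. Ly6g and Mpo, which define neutrophils, did not pass the filter on low counts. Of 54 interferon-stimulated genes 1 was called, Usp18, which rose by 0.77 ± 0.18. No gene of MHC class I (22 tested) or class II presentation (10 tested) was called by edgeR, with 3 and 1 at an unadjusted p under 0.05, and DESeq2 called 2 and 1. Slc40a1 was the 1 call among 16 Kupffer cell markers, which summed to 479 to 600 CPM in GF LKO and 625 to 733 in SPF LKO and of which 3 differed upward. None of the sinusoidal endothelial (12), stellate (12), cholangiocyte (8), T and NK cell (9) and erythroid (5) markers tested was called by edgeR. Their counts at an unadjusted p under 0.05 were 5, 4, 2, 0 and 3, and DESeq2 called 1, 1, 0, 0 and 1. Tlr5 and Slc40a1 lost the call without GF LKO replicate 2 or 3 or SPF LKO replicate 2, and Tlr5 also without GF LKO replicate 1 (adjusted p up to 0.0985 and 0.0889). S100a8 held only without GF LKO replicate 1 (up to 0.169), and Usp18 and Csf3r lost the call without any single library (up to 0.167 and 0.16).

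The clock itself was not among the changes. Of 17 clock genes tested, 0 were called by edgeR or DESeq2 and 0 had an unadjusted p under 0.05. Arntl differed by −0.31 (adjusted p = 0.241), Npas2 by 0.24 (0.457), Nr1d1 by −0.92 (0.44) at about 1 CPM, Dbp by 0.26 (0.65), Per3 by −0.32 (0.569) and Cry1 by 0.27 (0.433). Lists of the unfolded protein response (27 tested, 8 at an unadjusted p under 0.05, DESeq2 4), immediate early genes (16, 1 and 0), cell cycle (22, 2 and 0) and the mitochondrial chromosome (7, 3 and 2) held no call by edgeR either. Of 21 heat shock and cold-inducible genes, Hspe1 and Fkbp4 rose, by 0.61 ± 0.14 and 0.60 ± 0.13, and lost the call without GF LKO replicate 2 or 3 or SPF LKO replicate 2 (adjusted p up to 0.162 and 0.14), Hspe1 also without SPF LKO replicate 3 and Fkbp4 also without SPF LKO replicate 1. Among hepatocyte markers Serpina1a rose by 0.73 ± 0.12 and held throughout. Cela2a, an elastase on the list of pancreas, gut and fat markers, rose by 1.82 ± 0.37 at 1.12 to 1.77 CPM in GF LKO, and held only without SPF LKO replicate 1 (up to 0.125).

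**Figure D3:**
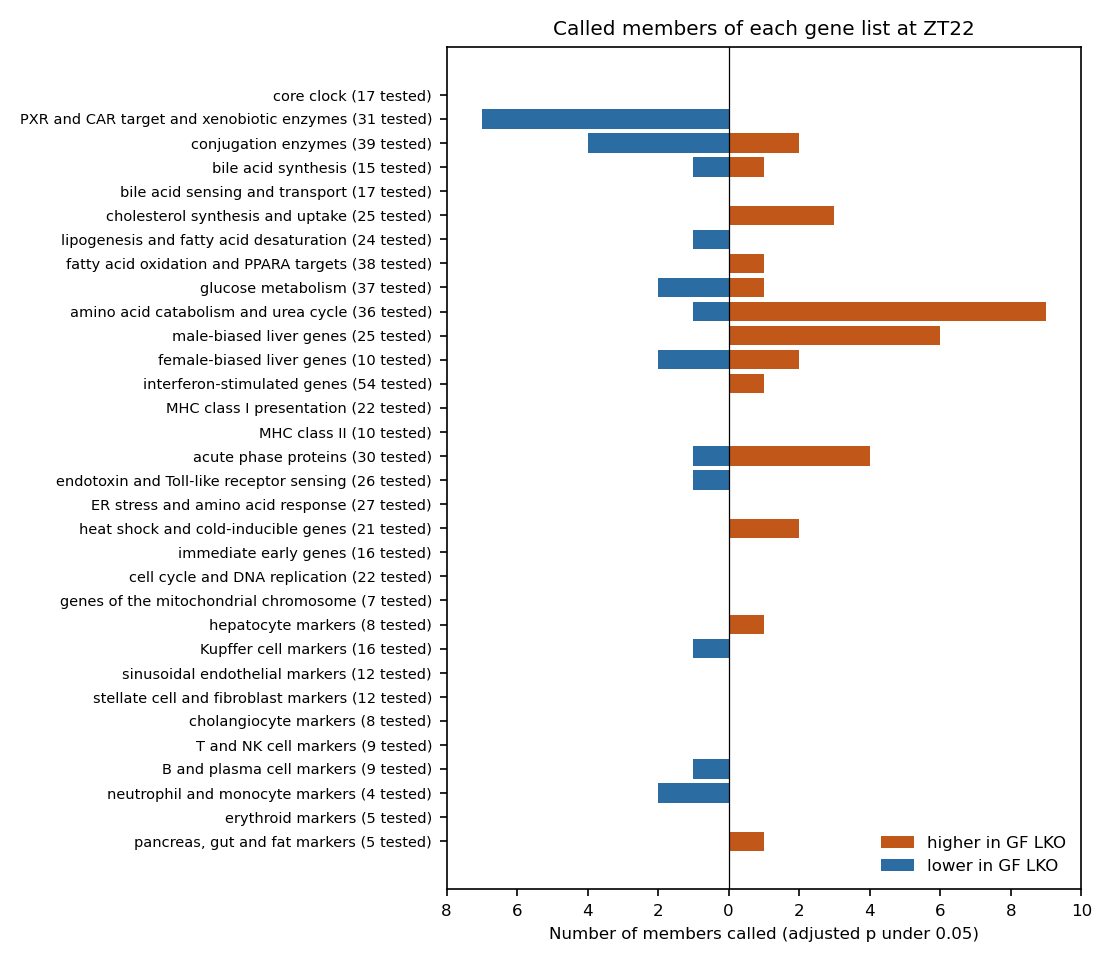
Number of members called higher (orange, right) and lower (blue, left) in GF LKO for each gene list, with the number of members tested in parentheses. The longest bars are 9 increases of amino acid catabolism, 7 decreases of xenobiotic enzymes and 6 increases of male-biased genes.

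The remaining named genes of the largest changes have less settled roles in liver. Serpine2, protease nexin 1, an inhibitor of thrombin and plasmin, rose by 2.02 ± 0.38, from 2.11, 2.47 and 4.85 CPM to 8.92, 18.6 and 10.9 CPM. Col27a1, a fibrillar collagen, fell by 1.73 ± 0.28, from 8.1, 10.1 and 15.3 CPM to 3.12, 2.13 and 4.79 CPM. Lhx6, a LIM homeobox transcription factor, fell by 1.99 ± 0.42, and Astn2, an astrotactin known from neurons, by 1.68 ± 0.32. All 3 decreases were at 15.3 CPM or less. Col27a1 held without any 1 library. Serpine2 lost the call without GF LKO replicate 2 or SPF LKO replicate 2 (adjusted p up to 0.0973), Astn2 without these or GF LKO replicate 3 (up to 0.0973), and Lhx6 without any GF LKO library or SPF LKO replicate 2 (up to 0.139).

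The WT livers of ZT22 show the same contrast with the clock in place. There, 70 genes (0.516%) were called, 47 higher and 23 lower in GF. Of the 305 genes called in LKO, 291 had the same sign in WT and 35 were called in both, which is 11.5% of the LKO calls and 50% of the WT calls. Cyp3a11 fell in both, by 3.03 ± 0.30 in WT, where GF livers kept 1130, 724 and 748 CPM and SPF livers had 6830, 7010 and 7510 CPM. The difference between the effects was −1.98 ± 0.39 and did not pass the test (adjusted p = 0.433). Cyp3a59, Ces2a, Sult1a1, Cyp2c70, Ebp, Tm7sf2, Moxd1, Serpina1a and Igha were called in the same direction in both genotypes. Among the named genes, Csad fell by 2.45 in LKO and differed by −1.29 in WT (adjusted p in WT = 0.0982), Hamp by 2.11 and −0.63 (0.396), and Me1 by 1.25 in LKO and +0.28 in WT (0.535), and for none of these did the difference between genotypes pass the test. A gene called in LKO only is thus not shown to respond differently.

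The test of that difference called 2 of 13576 genes (0.0147%), with 514 at an unadjusted p under 0.05, and DESeq2 called 11, with 546. Ces1e, a carboxylesterase, was lower in GF than in SPF livers of LKO mice and higher in those of WT mice. Its WT levels were 409, 400 and 380 CPM in GF and 296, 246 and 296 CPM in SPF, and its LKO levels 56.5, 67.6 and 68.4 CPM in GF and 125, 120 and 110 CPM in SPF. The WT and LKO effects were 0.50 ± 0.11 (adjusted p = 0.0633) and −0.88 ± 0.11, and their difference was −1.39 ± 0.16 (adjusted p = 0.00817). Its neighbors on chromosome 8, Ces1d and Ces1f, had differences of −1.24 ± 0.23 and −1.17 ± 0.23 that did not pass (adjusted p = 0.433 for both). These copies are alike in sequence. Gpx6, a glutathione peroxidase, rose in WT liver. It was at 12.2, 11.4 and 12.6 CPM in GF WT and 1.02, 1.65 and 1.88 CPM in SPF WT, but between 0.345 and 0.687 CPM in all 6 LKO libraries. Its difference was −3.15 ± 0.42 (adjusted p = 0.0247). The Ces1e difference held without any 1 of the 12 libraries (adjusted p up to 0.0485), but in the fit of all 72 libraries neither difference passed (adjusted p = 0.612 for Ces1e and 0.671 for Gpx6), nor did either with the replicate number as a block (0.0548 for both). That of Gpx6 was lost without GF LKO replicate 1 or 3, SPF LKO replicate 2 or 3, any GF WT library or SPF WT replicate 2 (up to 0.162).

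**Figure D4:**
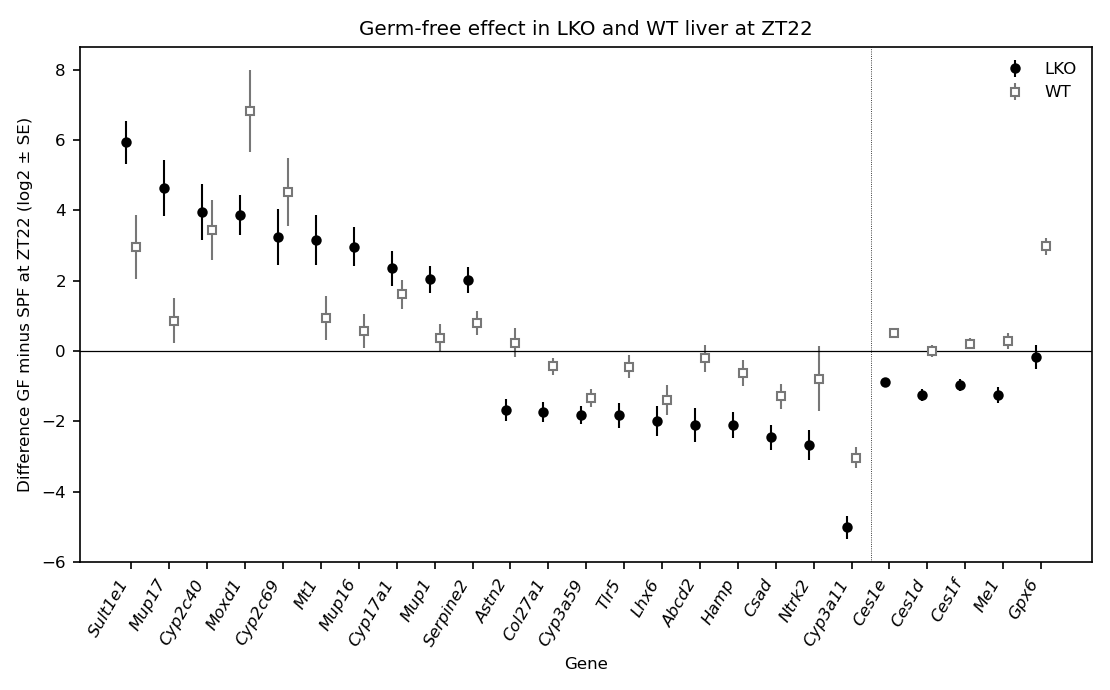
Difference between GF and SPF liver at ZT22 (log2, with SE bars) in LKO (filled circles) and WT (open squares), for the 10 largest increases and 10 largest decreases in LKO (left of the dotted line) and for Ces1e, Ces1d, Ces1f, Me1 and Gpx6. Ces1e is −0.88 in LKO and 0.50 in WT, and Gpx6 is −0.17 and 2.98.

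The same contrast at the other ZT of LKO liver shows which of these changes are seen around the clock. The test of the GF effect at ZT22 against its mean at ZT2, ZT6 and ZT10 (24 libraries, 14057 genes) called 0 genes (0%) by edgeR, with 1008 at an unadjusted p under 0.05, and 0 by DESeq2, with 1069. Cyp3a11 was lower in GF LKO at all 6 ZT, by 4.52 to 5.66 on the log2 scale. Sult1e1 was higher at all 6, by 3.28 to 5.93. Csad differed by −1.09 to −2.54 and Bhmt by 0.88 to 1.33 at all 6 ZT. Ces1e was lower in GF LKO at each ZT (−0.19 to −1.28) and higher in GF WT at each (0.12 to 0.83), where 1 GF WT library at ZT6 and 1 SPF WT library at ZT14 (replicate 3 in both) went against their labels. Other named genes had more varied values. Hamp differed by −2.11 at ZT22 and −1.44 at ZT2, but by −0.15 to −0.49 between ZT6 and ZT18, while its GF LKO levels at those 4 times lay between 300 and 819 CPM (scaled over all 72 libraries). Mup17 was 4.91 higher in GF LKO at ZT2 and 4.64 at ZT22, but the difference was 2.45 at ZT6, 0.96 at ZT10, 0.98 at ZT18 and −2.32 at ZT14, and SPF LKO libraries ranged from 0.865 to 242 CPM. Serpine2 was higher in GF LKO at 3 of the 5 other ZT and Cyp17a1 and Mt1 at 4 of 5. Astn2 was lower in GF LKO at 2 of the 5 (range −1.44 to 0.34). For none of these genes did ZT22 differ from the day values by the test (adjusted p 0.609 or more). At ZT14 and ZT18, 1 SPF LKO library each (replicate 2 and replicate 1) had expression that went against its label, which touches the values of those times.

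**Figure D5:**
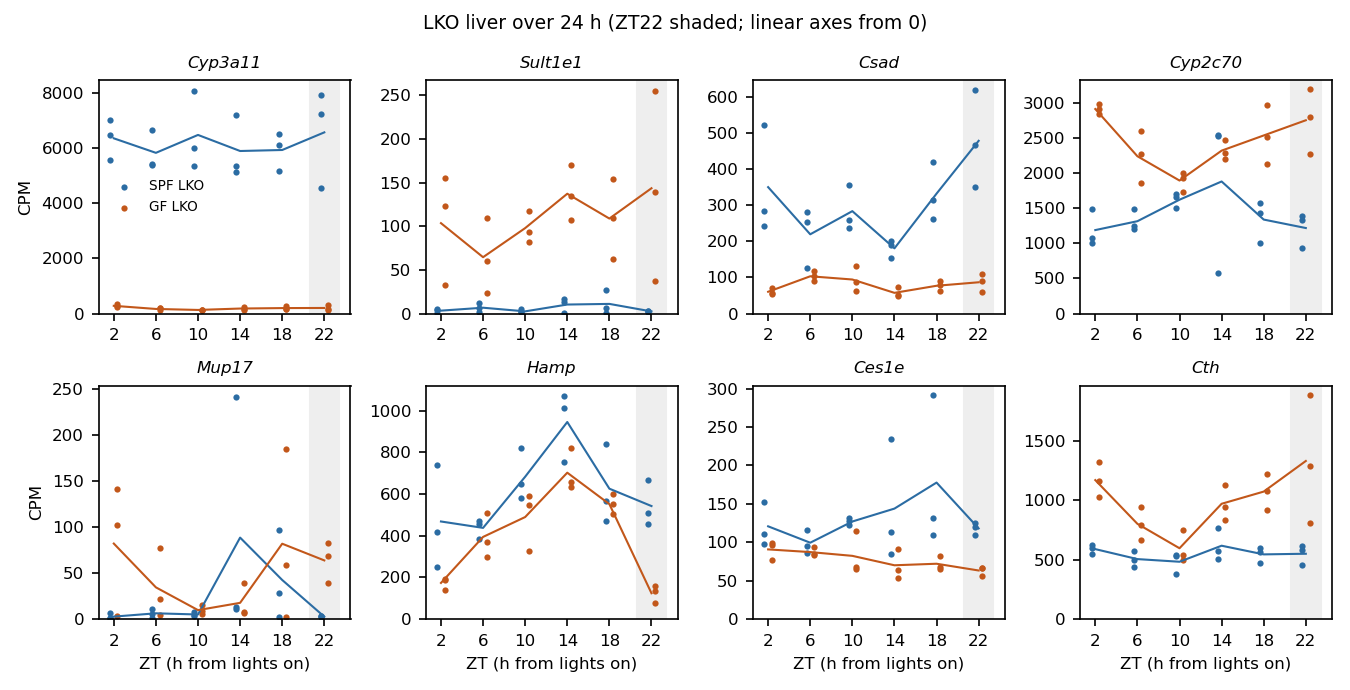
CPM (linear axes from 0) of 8 genes in SPF LKO (blue) and GF LKO (orange) liver over 6 ZT, 1 point per library and lines through the means of 3, with ZT22 shaded. The CPM are scaled over all 72 libraries and so differ slightly from those of the ZT22 fit. Cyp3a11 is low in GF LKO throughout (120 to 347 CPM), and Hamp lies at 76.6 to 158 CPM in GF LKO at ZT22.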

How the data were processed

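Liver RNA of single mice was sequenced, 1 library per mouse and single-end from a stranded mRNA kit. The authors deposited raw counts per gene: reads were aligned with STAR 2.6.1b to mm10 and counted over exons with featureCounts 2.0.0 on Ensembl release 97, without the strand and without reads that fit several places or genes, so close copies and antisense genes are uncertain. The table held 55573 genes, of which 55394 had a symbol, and 0 of its columns were left unused. Libraries held 17369927 to 22076113 counts.

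Counts were fitted with edgeR 4.0.16 (quasi-likelihood test, TMM scaling, filterByExpr) in R 4.3.3, over the 12 libraries of ZT22 with 4 group means that share 1 estimate of the spread. GF minus SPF was tested in LKO and in WT, as was the difference between them. The effect at ZT22 against the mean of ZT2, ZT6 and ZT10 was tested over 24 LKO libraries. Calls had a Benjamini-Hochberg adjusted p under 0.05. The p-values rest on the spread between single mice within groups, pooled over all groups of a fit. The WT mice thus enter the spread used for the LKO test at ZT22. Named genes were the 10 largest changes in each direction (called, mean log2 CPM of at least 1, ranges not overlapping, no predicted gene models), up to 6 called members of each list by p (up to 2 by unadjusted p where none was called), 6 clock genes, and up to 6 genes of each test of a difference. Other genes are members of lists or families named after their values were seen. Genes with 3 or fewer counts over a group are given as raw counts, without a fold change. Alternatives were DESeq2 1.42.0, RLE scaling, no filter, a replicate block, other sets of libraries and leaving out each library. The code was tested on simulated data. The comparison and the gene lists were chosen with earlier results of these data known. Some list members are counted but not reported here by name.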

Additional observations from a re-analysis of the deposited data

Results flagged for a closer look

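The difference between groups was tested for the GF effect in LKO against that in WT, and 2 genes passed. For Ces1e the LKO effect minus the WT effect was −1.39 (adjusted p = 0.00817 by edgeR's quasi-likelihood test). It was lower in GF in 3 of 3 LKO mice, against every SPF LKO mouse, and higher in 3 of 3 WT mice, against every SPF WT mouse. For Gpx6 the difference was −3.15 (adjusted p = 0.0247). It was higher in all 3 GF WT libraries than in any SPF WT library, and the LKO groups overlapped at under 1 CPM. Neither difference passed in the fit of all 72 libraries (adjusted p = 0.612 for Ces1e and 0.671 for Gpx6) or with the replicate number as a block (0.0548 for both).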

How the results depend on the processing

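Genes called between GF LKO and SPF LKO (305, and 117 with a log2 change of at least 1) were 1017 and 196 with DESeq2, which called 300 of the 302 to which it gave an adjusted p, 1287 and 340 without the filter on low counts, and 1073 and 183 in the fit of all 72 libraries. With the 6 LKO libraries alone the counts were 304 and 131. Of the 305 genes, 300 were tested in that fit and 212 were called. With each LKO library left out the counts were 40 to 434 and 27 to 124. Called genes kept their sign in every alternative. The share called higher, 63.6%, ranged from 50% without SPF LKO replicate 3 to 71.1% without GF LKO replicate 3. It was 55.9% without the filter and with the 6 LKO libraries alone, 66.1% with RLE scaling, 67.7% with DESeq2 and 68.5% in the fit of all 72 libraries. The deviations of GF LKO and SPF LKO libraries with the same replicate number correlated at −0.165, 0.0871 and 0.138. GF LKO replicate 3 correlated best with its own number, and replicates 1 and 2 did not. With 3 libraries a group, these values cannot show whether the numbers pair the samples. The replicate block gave 173 and 81 genes, 164 of them among the 305, and 0 for the difference between genotypes (adjusted p = 0.0548 for Ces1e and for Gpx6). That difference, 2 genes, gave 11 with DESeq2, 137 without the filter, 0 in the fit of all 72 libraries (adjusted p = 0.612 for Ces1e and 0.671 for Gpx6) and 1 to 4 with each library left out. The difference between ZT22 and the day, 0 genes, gave 180 without the filter and 0 otherwise. The sign turned for Npas2 without GF LKO replicate 3 and for Gpx6 in LKO without SPF LKO replicate 3, neither of them called (ranges with each library left out −0.0149 to 0.403 for Npas2 and −0.385 to 0.102 for Gpx6). Of the named genes, Moxd1, Col27a1, Ces1d, Abcd2, Csf3r, Gstm3, Mt2, Orm1, Stard4, Ugt1a9 and Usp18 lost the call in the fit of all 72 libraries. Pck2, Pfkfb1, S100a8, Stard4, Ugt1a9 and Usp18 lost it with the 6 LKO libraries alone. The cause was not tested. Genes under about 1 CPM rest on few reads, and at this depth small changes in them were not detectable.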

Other observations

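The gene families below, and the members named, were chosen after the values were seen. Of 80 tested cytosolic ribosomal proteins, the protein part of the translation machinery, 74 differed upward in GF LKO and 14 were called higher, 0 lower, with a median of 0.58 in LKO and 0.34 in WT, where 0 were called. The ribosomal gene Rplp0 was at 297, 302 and 317 CPM in GF LKO and at 212, 157 and 194 CPM in SPF LKO. Among the 14 called, exon length ran from 383 bases (Rpl36) to 6256 bases (Rps24), against a median of 4268 bases for all genes tested. The median difference was 0.159 over the 3395 genes with the least exon length. The part of gene length in the ribosomal differences was not tested. Each of the 14 lost the call without at least 1 library. All 20 tested major urinary protein genes differed upward, 9 of them called, with a median of 1.49 in LKO and 0.29 in WT. Of 14 carboxylesterases 5 were called lower and 0 higher, with a median of −0.56 in LKO and 0.11 in WT. Of 5 alpha-1-antitrypsins (Serpina1 genes, near-identical copies) 4 were called higher.

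Tryptophan breakdown, which also feeds the synthesis of NAD, held 3 calls among 12 genes tested. Acmsd, which diverts the pathway away from NAD, was at 34.3, 33.6 and 42.8 CPM in SPF LKO and at 111, 178 and 151 CPM in GF LKO, and rose by 1.99 ± 0.17 (adjusted p = 9.49e-05). Aadat rose by 1.41 ± 0.18 and Kynu by 0.74 ± 0.15. Of 16 genes of purine synthesis and salvage 3 rose: Paics, at 312, 314 and 308 CPM in SPF LKO and 502, 798 and 684 CPM in GF LKO, and the salvage enzymes Pnp and Aprt. Of 20 genes of iron handling, Tfrc, the transferrin receptor, rose by 1.63 ± 0.35, and Hamp, Slc40a1, Smad7 and the mitochondrial iron carrier Slc25a37 fell. Acmsd, Aadat, Paics, Pnp and Slc25a37 held with any 1 library left out, Kynu and Smad7 lost the call without GF LKO replicate 2 or 3 or SPF LKO replicate 2 or 3 (adjusted p up to 0.115 and 0.131), and Tfrc held only without GF LKO replicate 1 (up to 0.144). The antibody segment Igkv6-32 had 28, 10 and 34 raw counts in GF LKO and 1, 1 and 0 in SPF LKO, the opposite direction to Igha, and held throughout.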
